A study of Homo sapiens with 72 samples.

Results

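The G1/S and DNA replication genes are 35 genes whose products license replication origins, copy DNA, make its building blocks and drive cells from G1 into S phase. They were taken by gene symbol from 30142 gene names on the array, and 34 of the 35 could be tested. Their RNA was measured in IMR-90 cells, a strain of normal human lung fibroblasts at early passage. Irradiated cells had grown on the thin Mylar base of the dish and received 0.5 Gy of α-particles (helium ions), bystander cells had grown in the same dish on thicker Mylar strips that the particles could not cross, and control cells were sham-irradiated. Each of the 3 groups was sampled at 6 times, from 0.5 and 1 hours through 2, 4 and 6 to 24 hours, in 4 experiments, 1 array per sample, which makes 72 arrays. All groups were the same cells in the same medium and carried no engineered allele. Bystander and irradiated cells shared a dish, and both were compared with the same control of their experiment, so the 2 comparisons share control samples.

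The genes act in a known order. In G1 the proteins CDC6 and CDT1 load the MCM2 to MCM7 helicase onto origins. Once S phase begins, geminin (GMNN) holds CDT1 back and the ligase adaptor DTL has CDT1 destroyed. Cyclin D1 and the E cyclins release the E2F transcription factors from the retinoblastoma protein, and E2F then turns on most genes of this set. After DNA damage p53 raises CDKN1A (p21), an inhibitor of the cyclin-dependent kinases and a ligand of PCNA.

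Levels are log2 intensities relative to the 75th percentile of the same array, so that a level of 0 is the brightness of that percentile. Ratios are differences of such levels within an experiment. Probes well above background made up 65.7% to 76.9% of the spots of an array, and the 4 arrays per group limit the precision. All 34 tested genes were well above background in at least 95.8% of their spots over the 72 arrays. CCNE2, which codes for cyclin E2, was not well above background in 30.6% of its spots and was not tested. Of the fibroblast markers, 10 of 10 were well above background on every array, with COL1A2 (mean level 7.28) and VIM (7.14) the brightest. The epithelial genes CDH1 and KRT5 were well above background in 1.67% and 1.39% of their spots and the endothelial PECAM1 in 2.78%, and the leukocyte gene PTPRC in 1.39% at most by either probe. EPCAM and CDH5 were well above background in 61.1% and 16.7%. The other markers of these lists were well above background in every spot of their brightest probe, with mean levels of -1.77 for SFTPC and -3.25 for KRT19 (epithelial), 2.76 for TEK and -3.29 for VWF (endothelial), and 0.08 for CD79A, -2.90 for CD14 and -3.46 for CD3E (leukocyte).

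The level of the genes differed widely between experiments. At 2 hours the median level of the 34 genes was 0.28, 0.43, -0.74 and 0.10 in the controls of experiments 1 to 4, against 0.78, 0.90, -0.44 and 1.07 in irradiated cells and 0.51, 0.57, -0.64 and 1.26 in bystander cells. Experiment 3 had the lowest median in all 3 groups from 1 to 6 hours, and experiment 4 had the highest in irradiated and bystander cells from 1 to 24 hours. At 0.5 hours the order of experiments 3 and 4 was turned round. The irradiated arrays of experiments 3 and 4 had medians of 1.21 and -1.15, the bystander arrays 1.25 and -1.20 and the controls 0.54 and -0.37. In the table of processed values that the authors also deposited, the 6 arrays numbered 3 and 4 at 0.5 hours carry each other's values, and the other 66 arrays carry their own. The slides of these control and irradiated arrays were exchanged too. From 1 to 24 hours control and irradiated arrays 3 lay on slide 2 and arrays 4 on slide 3, and at 0.5 hours arrays 3 lay on slide 3 and arrays 4 on slide 2. With the numbers of the table, experiment 3 is the lowest and experiment 4 the highest in irradiated and bystander cells at 0.5 hours as well, so the turned order is not read as a change between times. The ratios of a time point do not depend on it, since the exchange is the same in all 3 groups, and the numbers of the scanner outputs are used here. The irradiated and bystander arrays of an experiment differed in the median level by 0.23 (median over 24 pairs, range 0.01 to 0.80), and the irradiated and control arrays by 0.48 (0.10 to 1.34).

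**Figure D1:**
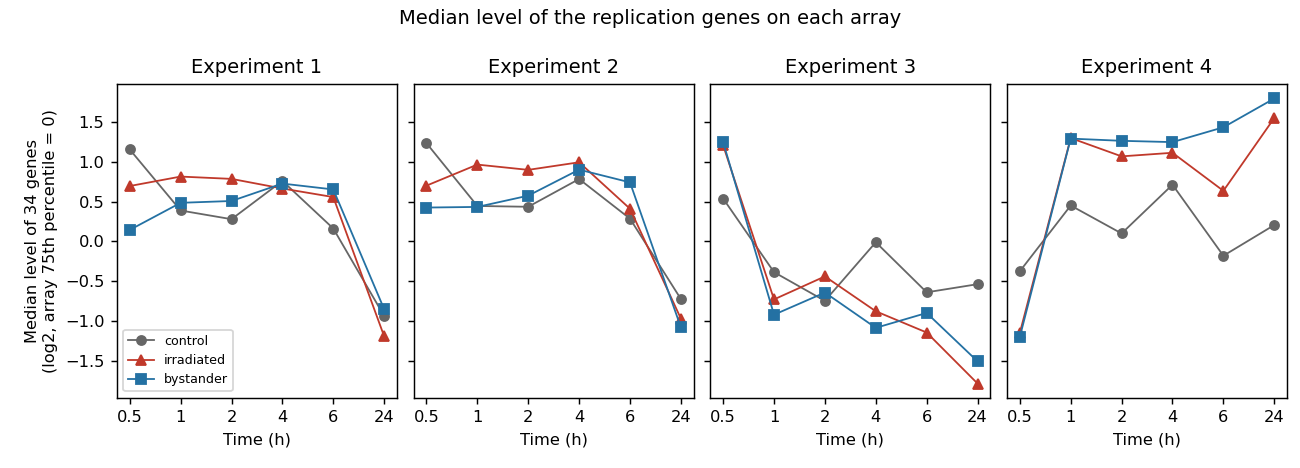
Median log2 level of the 34 tested genes on each of the 72 arrays (vertical axis, array 75th percentile at 0) against time in hours (horizontal axis, equally spaced), with 1 panel per experiment and 1 line per group. In irradiated and bystander cells experiment 3 runs lowest and experiment 4 highest from 1 hour on, with the opposite order at 0.5 hours by the numbers of the scanner outputs, whereas the controls of experiment 4 sit below those of experiments 1 and 2 at 2 and 6 hours, and at 24 hours the irradiated arrays sit at -1.78 in experiment 3 and 1.55 in experiment 4.

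At 2 hours 14 of the 34 replication genes were higher in irradiated cells than in controls and 0 lower at an adjusted p below 0.10 (limma, Benjamini-Hochberg over 25236 probes), and 33 had a ratio above 0. Over all probes 5.78% passed the test at this time and 3.1% passed it as higher. The median log2 ratio of the genes was 0.52 (1.43-fold), against 0.00 over all probes, and within experiments 1 to 4 the median was 0.57, 0.42, 0.18 and 0.88 (mean 0.51 ± 0.29, SD, n = 4). Experiment 3 was the lowest and experiment 4 the highest, and all 4 were above 0.

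DTL, the adaptor that marks CDT1 for destruction, had levels of -1.85, -1.73, -3.45 and -2.14 in the controls of experiments 1 to 4 and -1.14, -1.03, -2.92 and -0.43 in irradiated cells. The irradiated array was the higher one in every experiment, although the ranges of the 2 groups overlapped because experiment 3 was low in both. Its ratio was 0.91 ± 0.54 (SD, n = 4, 1.88-fold, adjusted p = 0.098). Across the alternative settings and other probes the call of DTL held in 4 of 14, and those of CDT1 and UHRF1 in 9 of 15. CDT1, the loader of the MCM helicase, had levels of 1.40, 1.22, 0.40 and 1.81 in controls and 2.47, 2.21, 0.88 and 2.88 after irradiation, a ratio of 0.90 ± 0.29 (1.87-fold, adjusted p = 0.015). Its lower-signal probe gave 0.77 with an adjusted p of 0.034. CDC6, which works with CDT1 on the origin, went from -0.25, -0.10, -1.94 and -0.42 to 0.60, 0.56, -1.54 and 1.05, a ratio of 0.84 ± 0.45 (adjusted p = 0.067).

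E2F2, an activating member of the E2F family, had control levels of -0.60, -0.46, -2.42 and -0.70 and irradiated levels of 0.44, 0.44, -2.34 and 0.51. Experiment 3 lay far below the others in both groups and had a ratio of 0.08, while the other ratios were 1.04, 0.90 and 1.22. The mean ratio was 0.81 ± 0.50 (SD, n = 4, adjusted p = 0.059), and the other E2F2 probe gave 0.46, with an adjusted p of 0.18. UHRF1, which brings maintenance DNA methylation to newly copied DNA, had control levels of 1.49, 1.64, -0.57 and 1.51 and irradiated levels of 2.29, 2.55, -0.13 and 2.39, a ratio of 0.76 ± 0.22 (adjusted p = 0.024). The ratios of UHRF1 in the 4 experiments ran from 0.44 to 0.91.

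The promoters of 4 of these genes are shown because each holds a match to the E2F motif within 50 bases of the start site. Each window runs from 250 bases before to 50 bases after the start of the gene as RefSeq gives it, in the direction of the gene, and the capitals mark the motif.
DTL (GRCh38.p14, chr1:212035498-212035797, + strand): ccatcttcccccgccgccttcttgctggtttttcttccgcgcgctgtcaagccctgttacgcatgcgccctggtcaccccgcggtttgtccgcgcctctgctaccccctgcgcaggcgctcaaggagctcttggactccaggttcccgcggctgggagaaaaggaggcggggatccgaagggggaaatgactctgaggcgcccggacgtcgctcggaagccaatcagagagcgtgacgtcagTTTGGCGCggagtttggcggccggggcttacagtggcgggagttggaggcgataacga
CDT1 (GRCh38.p14, chr16:88803539-88803838, + strand): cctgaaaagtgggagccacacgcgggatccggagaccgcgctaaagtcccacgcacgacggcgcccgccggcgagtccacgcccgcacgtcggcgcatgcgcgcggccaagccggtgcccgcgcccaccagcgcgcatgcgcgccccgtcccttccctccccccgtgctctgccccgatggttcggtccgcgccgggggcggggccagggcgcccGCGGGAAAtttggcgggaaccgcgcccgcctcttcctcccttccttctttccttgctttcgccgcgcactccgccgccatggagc
CDC6 (GRCh38.p14, chr17:40287629-40287928, + strand): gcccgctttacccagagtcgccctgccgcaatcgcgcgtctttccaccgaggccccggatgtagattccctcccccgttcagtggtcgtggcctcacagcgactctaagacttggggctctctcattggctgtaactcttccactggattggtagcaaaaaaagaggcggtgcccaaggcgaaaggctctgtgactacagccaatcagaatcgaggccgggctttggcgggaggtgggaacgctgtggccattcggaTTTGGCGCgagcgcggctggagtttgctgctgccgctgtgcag
E2F2 (GRCh38.p14, chr1:23531184-23531483, - strand): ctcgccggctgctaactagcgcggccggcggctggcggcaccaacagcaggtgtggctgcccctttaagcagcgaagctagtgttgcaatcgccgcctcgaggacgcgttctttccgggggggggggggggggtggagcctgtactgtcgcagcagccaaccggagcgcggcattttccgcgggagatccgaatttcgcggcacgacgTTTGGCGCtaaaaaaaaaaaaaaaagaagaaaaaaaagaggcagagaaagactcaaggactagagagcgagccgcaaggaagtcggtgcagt
The motif was TTTCCCGC, TTTCGCGC, TTTGCCGC or TTTGGCGC on either strand. It began at position -8 in DTL, -35 in CDT1, 7 in CDC6 and -42 in E2F2, where 0 is the start site, and in CDT1 it lay on the opposite strand. RefSeq windows were matched for 31 of the 35 genes, and CCND1, CCNE2, MCM4 and MCM5 were not matched. A match was found in 18 of the 31 (58.1%), against 3.99% of the 27305 genes with a window, counting a gene once where it has several windows. Among the genes that passed the test at 2 hours 8 of 14 held it, and among those tested that did not pass 10 of 17. The letters CCAAT, on either strand, were in 18 of the 31 (58.1%) and in 39.7% of all genes, and in 10 of 14 and 8 of 17 by the same split. Neither split was tested. These are matches of letters only, and the set was chosen for its place in the cell cycle.

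Some subunits of the helicase, primase and clamp loader were among the other genes that rose at 2 hours. MCM7 and MCM3, subunits of the helicase, had ratios of 0.65 ± 0.34 and 0.36 ± 0.25 (SD, n = 4, adjusted p = 0.063 and 0.094). The other subunits did not pass the test, with 0.44 for MCM2, 0.32 for MCM4, 0.39 for MCM5 and 0.16 for MCM6. PRIM1, the catalytic subunit of primase, had a ratio of 0.73 ± 0.47 (adjusted p = 0.098). Across the alternative settings the call of PRIM1 held in 2 of 14 and that of MCM3 in 3 of 14. RFC5, a subunit of the clamp loader, had a ratio of 0.48 ± 0.13 (adjusted p = 0.050), whereas RFC2, RFC3 and RFC4 had 0.17, 0.65 and 0.58 and did not pass. Thus the subunits of a complex did not all pass together, and a ratio above that of RFC5 could miss the threshold where the experiments scattered more, as for RFC3 (SD 0.59).

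In nucleotide supply, TK1 (thymidine kinase 1) had a ratio of 0.73 ± 0.29 (SD, n = 4, adjusted p = 0.021) and RRM1, the large subunit of ribonucleotide reductase, 0.58 ± 0.12 (adjusted p = 0.017). RRM1 had the smallest SD of the 34 genes at this time, with 0.54, 0.63, 0.44 and 0.72 in experiments 1 to 4. RRM2, its small subunit, had 0.48 and did not pass by the brighter probe, and 0.92 with an adjusted p of 0.093 by the other. FEN1, the flap endonuclease of the lagging strand, and MCM10, a helicase partner, likewise had 0.49 and 0.85 without passing, and 0.78 and 0.98 by their other probes, with adjusted p of 0.016 and 0.078. CHAF1B, a subunit of the histone chaperone CAF-1, had a ratio of 0.72 ± 0.32 (adjusted p = 0.053), and its partner CHAF1A had 0.38 without passing. CCNE1 (cyclin E1) had 0.38 ± 0.24 (adjusted p = 0.086) and E2F1 0.59 ± 0.32 (adjusted p = 0.092). By role and by the brightest probe, 5 of 12 genes of the pre-replicative complex and helicase passed, 2 of 8 fork proteins and primase, 2 of 5 genes of nucleotide supply and repair, 2 of 5 of chromatin replication and 3 of 4 tested regulators.

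**Figure D2:**
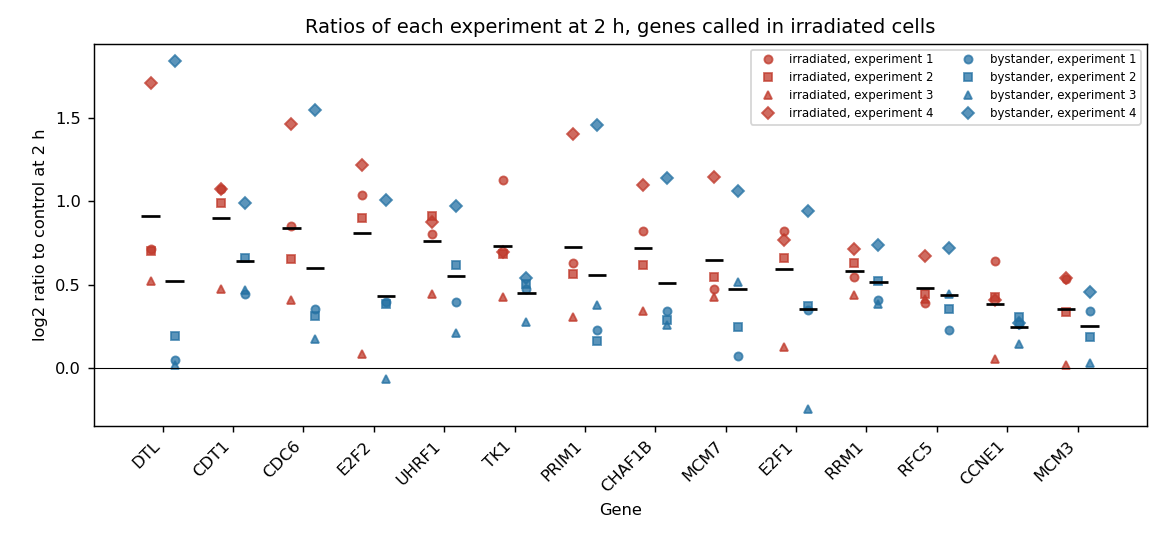
Log2 ratios to control at 2 hours (vertical axis) of the 14 genes that passed the test in irradiated cells (horizontal axis), with red symbols for irradiated and blue for bystander cells, 1 symbol shape per experiment and a black bar for the mean of 4. The red symbols all lie above 0, the diamonds of experiment 4 are often the highest (1.71 for DTL), and the triangles of experiment 3 are mostly the lowest.

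At 2 hours the count of irradiated cells changed with the experiments used. Without experiment 1 or 2 it was 0, where 0.111% and 0.0991% of all probes passed, and the median of the genes was 0.50 and 0.57 and DTL at 0.98 in both. Without experiment 3 the count was 3, where 0.242% of all probes passed, and the median 0.63. Without experiment 4 the count was 25, including all 14, where 19.5% of all probes passed, and the median 0.37. Control and irradiated arrays of experiments 1, 3 and 4 shared a slide, so the medians of 0.57, 0.18 and 0.88 above are also within slides, and those of experiment 2 lay on different slides. Over all arrays of slides 1 and 2, which mix experiments, the median ratio was 0.49 and 0.82. The value of 0.82 sets the irradiated arrays of experiments 2 and 3 against the control of experiment 3. With slide as a fixed block beside the experiment the median was 0.58, 27 of 34 genes (79.4%) had an unadjusted p below 0.05, against 17.9% of all probes, and 0 passed after adjustment, where 0.123% of all probes passed. Without the replicate block, which pairs the arrays of an experiment, 0 genes and 0.00793% of all probes passed, and without scaling between arrays 1 gene (UNG, lower) and 27.4% of all probes did, with a median ratio of 0.14 where the median of all probes was -0.38.

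At 6 hours 5 of the 34 genes were higher and 0 lower in irradiated cells. This is 14.7% of the genes, near the 10.5% of all probes that passed, and 4.89% of all probes passed as higher. The median ratio was 0.41, and 0.65, 0.34, -0.35 and 1.10 in experiments 1 to 4, so that experiment 3 lay below 0. The median was 0.72 without experiment 3 and 0.19 without experiment 4. Without experiment 1 or 2 the count was 0, where 3.11% and 5.02% of all probes passed. Without experiment 3 it was 9 (UNG among them, lower), where 7.38% passed, and without experiment 4 it was 2, where 0.824% passed. Without the replicate block it was 0, where 0.19% of all probes passed, and with slide as a fixed block it was 4, where 9.19% passed.

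TYMS, thymidylate synthase, had the highest ratio of the 34 genes in irradiated cells at 6 hours. Its levels were 2.24, 2.10, 1.87 and 1.79 in the controls and 3.49, 3.31, 2.64 and 2.88 in irradiated cells, so the 2 groups did not overlap. The ratio was 1.08 ± 0.22 (SD, n = 4, 2.11-fold, adjusted p = 0.048). PCNA, the sliding clamp of the fork and also a p53 target, had levels of 2.35, 2.51, 2.57 and 2.29 in controls and 3.49, 3.36, 3.65 and 2.87 in irradiated cells, again without overlap, and a ratio of 0.91 ± 0.25 (1.88-fold, adjusted p = 0.048). CDT1 had 0.89 ± 0.64 (adjusted p = 0.079), and 0.47 by its other probe, with an adjusted p of 0.27. RFC3 had 0.83 ± 0.36 (adjusted p = 0.065) and RRM1 0.81 ± 0.51 (adjusted p = 0.059). CDT1 and RRM1 had passed at 2 hours as well. In PCNA and TYMS experiment 3 had ratios of 1.07 and 0.77, whereas in 24 of the 34 genes it lay below 0. TK1 had a mean ratio of 0.94 and did not pass, since experiment 3 was at -0.51 and experiment 1 at 1.82. MCM2 to MCM6 had ratios from -0.09 to 0.12 at this time, and MCM7 had 0.51 without passing. RFC2, RFC4 and RFC5 had 0.10, 0.43 and 0.40, and RRM2 had 0.66.

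**Figure D3:**
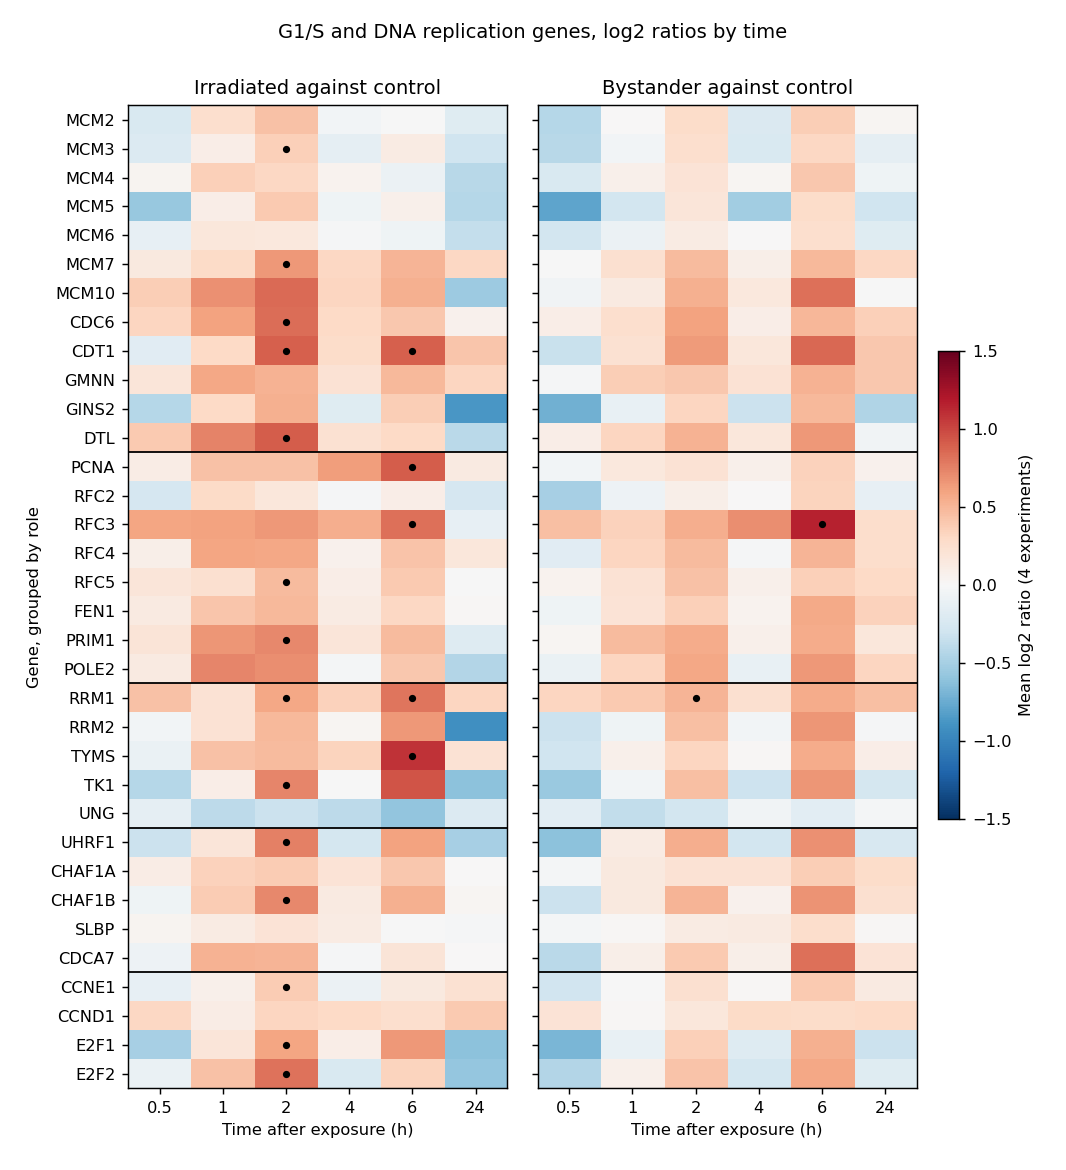
Mean log2 ratio of 4 experiments (colour, red higher and blue lower than control) for the 34 tested genes (rows, grouped by role) at 6 times in hours (columns), in irradiated and in bystander cells, with a dot where the adjusted p was below 0.10. The dots are 14 at 2 hours and 5 at 6 hours in irradiated cells and 1 at each of these times in bystander cells.

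At the other times no gene of the set passed the test in irradiated cells by limma and by its brightest probe. At 0.5 hours the count was 0 of 34 although 9.89% of all probes passed, and 2 genes (5.88%) had an unadjusted p below 0.05, against 26.3% of all probes. At 1 hour 0 of 34 and 0% of all probes passed, with 11 genes (32.4%) below an unadjusted 0.05, near the 26.9% of all probes. At 4 hours it was 0 of 34 with 0.999% of probes, and 4 genes (11.8%) unadjusted against 15.0% of probes. At 24 hours it was 0 of 34 with 0.174% of probes, and 0 genes unadjusted against 13.3% of probes. The median ratio of the genes was 0.00, 0.30, 0.10 and -0.15 at 0.5, 1, 4 and 24 hours. With 1 experiment left out it ran from 0.14 (without experiment 4) to 0.54 (without experiment 3) at 1 hour, from -0.08 to 0.33 at 4 hours and from -0.66 to 0.35 at 24 hours, with the same experiments left out at the ends. With slide as a fixed block the medians were 0.08, 0.30, 0.08 and 0.01 in time order, with 17 of 34 genes above 0 at 24 hours. At 0.5 hours without the array set numbered 3 the count was 6, all lower, and the median -0.23, where 5.71% of all probes passed and 2.30% as lower. In the arrays numbered 1, 2 and 4, 30, 27 and 27 of the 34 genes lay below their control, against 1 in those numbered 3. At 24 hours the experiments scattered most, with medians of -0.07, -0.31, -1.17 and 1.30 in experiments 1 to 4. The change of the ratio from 4 to 24 hours was tested itself, and 0 of 34 genes and 0% of all probes passed, with 0 genes below an unadjusted 0.05.

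In bystander cells most ratios were above 0 at 2 and 6 hours, and 1 gene passed at each time. At 2 hours 33 of 34 genes had a ratio above 0, with a median of 0.40 and 0.22, 0.17, 0.05 and 0.98 in experiments 1 to 4. Without experiment 4 the median was 0.14. RRM1 was the gene that passed, with 0.41, 0.52, 0.38 and 0.74 in the 4 experiments and a ratio of 0.51 ± 0.16 (SD, n = 4, 1.43-fold, adjusted p = 0.080). Its partner RRM2 had 0.45, and 0.12 without experiment 4. Over all probes 0.218% passed and 0.194% passed as higher. An unadjusted p below 0.05 was found for 18 of 34 genes (52.9%), against 15.5% of all probes. DTL, CDT1, CDC6, E2F2 and UHRF1 had bystander ratios of 0.52, 0.64, 0.60, 0.43 and 0.55 and did not pass, and for some the value came mainly from experiment 4. DTL had 1.84 there, against 0.05, 0.19 and 0.02 in the others. Without experiment 4 the ratios of the 5 genes were 0.08, 0.52, 0.28, 0.24 and 0.41, and those of DTL, CDC6 and E2F2 moved by over 1.5 times.

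The median bystander ratio at 6 hours was 0.51, with 33 of 34 genes above 0 and 0.42, 0.51, -0.29 and 1.49 in experiments 1 to 4. It was 0.78 without experiment 3 and 0.18 without experiment 4. An unadjusted p below 0.05 was found for 10 of 34 genes (29.4%), against 14.5% of all probes. RFC3, a clamp loader subunit, passed with 0.55, 1.27, 0.88 and 1.93 and a mean of 1.16 ± 0.59 (SD, n = 4, 2.23-fold, adjusted p = 0.091), where 0.289% of probes passed and 0.214% as higher. RFC2, RFC4 and RFC5 had 0.33, 0.51 and 0.36. The count at 2 hours was 0 without experiment 1, 2 or 3, where 0.0317%, 0% and 0.0713% of all probes passed, and 5 without experiment 4, where 12.3% of all probes passed, and at 6 hours it was 0 without experiment 1, 2 or 4, where 0% of all probes passed in each. Without experiment 3 it was 3 at 6 hours, where 0.927% of all probes passed, and RFC3 was not among these. With slide as a fixed block, no scaling between arrays, quantile normalization, normexp background correction, no intensity trend or no replicate block, neither RRM1 at 2 hours nor RFC3 at 6 hours passed. At 0.5, 1, 4 and 24 hours 0 of 34 genes passed by limma, with 3, 2, 2 and 0 genes at an unadjusted p below 0.05, against 22.4%, 14.4%, 15.8% and 11.1% of all probes, and medians of -0.20, 0.10, 0.04 and 0.08. Without experiment 4 the medians at 1, 4 and 24 hours were -0.12, -0.19 and -0.39, and without experiment 3 they were 0.32, 0.21 and 0.53. With slide as a fixed block the medians at the 4 times were -0.05, 0.22, 0.10 and 0.38, with 31 of 34 genes above 0 at 24 hours. Over all probes 7.01% passed at 0.5 hours, 0% at 1 hour, 0.59% at 4 hours and 0% at 24 hours. Without the arrays numbered 3 at 0.5 hours 19 genes passed in bystander cells, all lower, with a median of -0.57, where 4.58% of all probes passed and 2.23% as lower. The bystander arrays numbered 1, 2 and 4 had 34, 32 and 31 of the 34 genes below their control, and those numbered 3 had 1. The change of the bystander ratio from 4 to 24 hours passed for 0 of 34 genes, with 0 genes unadjusted and 0% of probes.

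Irradiated and bystander cells were also compared directly, and no gene of the set passed at any of the 6 times by limma. Genes with an unadjusted p below 0.05 numbered 1 each (2.94%) at 2, 4 and 6 hours, against 1.12%, 1.30% and 1.52% of all probes, and 0 at the other times. Over all probes 0.0436% passed at 2 hours, 0.00792% at 4 hours and 0% at the other times. The median ratio of irradiated over bystander cells was 0.20, 0.25, 0.15, 0.07, -0.12 and -0.21 in time order. At 24 hours all 4 experiments were below 0, with -0.16, -0.10, -0.23 and -0.23, and at 1 hour all 4 were above 0. The genes below an unadjusted 0.05 were TK1 at 2 hours (0.29) and PCNA at 4 hours (0.55, from 0.21 to 0.72 in 4 of 4 experiments, SE 0.16, adjusted p = 1.00) and at 6 hours (0.57, SE 0.21, with 1.15, 0.33, 1.07 and -0.26 in experiments 1 to 4). The comparison therefore does not show that any gene of the set differed between irradiated and bystander cells, nor that they acted alike.

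CCND1 codes for cyclin D1, the regulator that answers growth signals in G1. At 2 hours its control levels were 1.57, 1.38, 1.57 and 1.67 and its irradiated levels 1.69, 1.68, 1.74 and 2.34, with bystander levels of 1.44, 1.47, 1.68 and 2.28. Irradiated arrays were higher in all 4 experiments, by 0.13, 0.30, 0.17 and 0.67, and did not overlap the controls. The ratio of 0.32 did not pass (adjusted p = 0.15). From 0.5 to 24 hours the irradiated ratio was 0.31, 0.12, 0.32, 0.30, 0.25 and 0.39, and the bystander ratio 0.20, 0.02, 0.17, 0.29, 0.27 and 0.30. The probes of CCND1 disagreed in irradiated cells. At 2 hours the second gave 0.43 and the third -0.14, with adjusted p of 0.11 and 0.73. At 6 hours the second gave 0.77 with an adjusted p of 0.061 and the third 0.03. The second also passed at 0.5 hours in irradiated cells (0.51, adjusted p = 0.055), where the probe that stands for the gene did not.

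UNG, the glycosylase that removes uracil from DNA, was the exception in direction. Its ratio was below 0 at all 6 times in both comparisons, with -0.32 and -0.28 at 2 hours and -0.59 and -0.16 at 6 hours in irradiated and bystander cells, and it did not pass in any of them. At 2 hours it was the gene of the set with a ratio below 0 in each comparison, and all 4 experiments lay below 0. CCNE2 was well above background on 1 of 4 arrays of each group at 24 hours, against 3 of 4 in each group at 2 hours, where its levels were -3.23, -3.70, -6.96 and -4.23 in controls and -3.11, -1.80, -7.64 and -2.75 in irradiated cells. The irradiated value of experiment 3 is the floor of the scale, which was also reached in 3 irradiated arrays and 1 bystander array at 24 hours.

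CDKN1A, which lies outside the set, had control levels of 2.11, 1.59, 3.24 and 3.22 at 2 hours, irradiated levels of 3.99, 3.73, 4.86 and 4.44 and bystander levels of 2.24, 1.97, 3.35 and 3.43. The irradiated arrays did not overlap the controls, and the bystander arrays did. Its irradiated ratio was 1.72 ± 0.39 at 2 hours (SD, n = 4, 3.29-fold), 2.22 ± 1.06 at 4 hours and 1.49 ± 0.75 at 6 hours. The adjusted p were 4.4e-04, 0.015 and 0.028. The call was lost without experiment 1 at 4 and 6 hours and without the replicate block at 2 and 6 hours. It was also lost without the filter on dim probes at 4 and 6 hours (adjusted p = 0.17 and 0.12). The bystander ratio of CDKN1A was 0.21, 0.18 and 0.32 without passing. At 2 hours CDKN1A was higher in the same irradiated arrays in which 14 of the 34 replication genes passed the test.

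**Figure D4:**
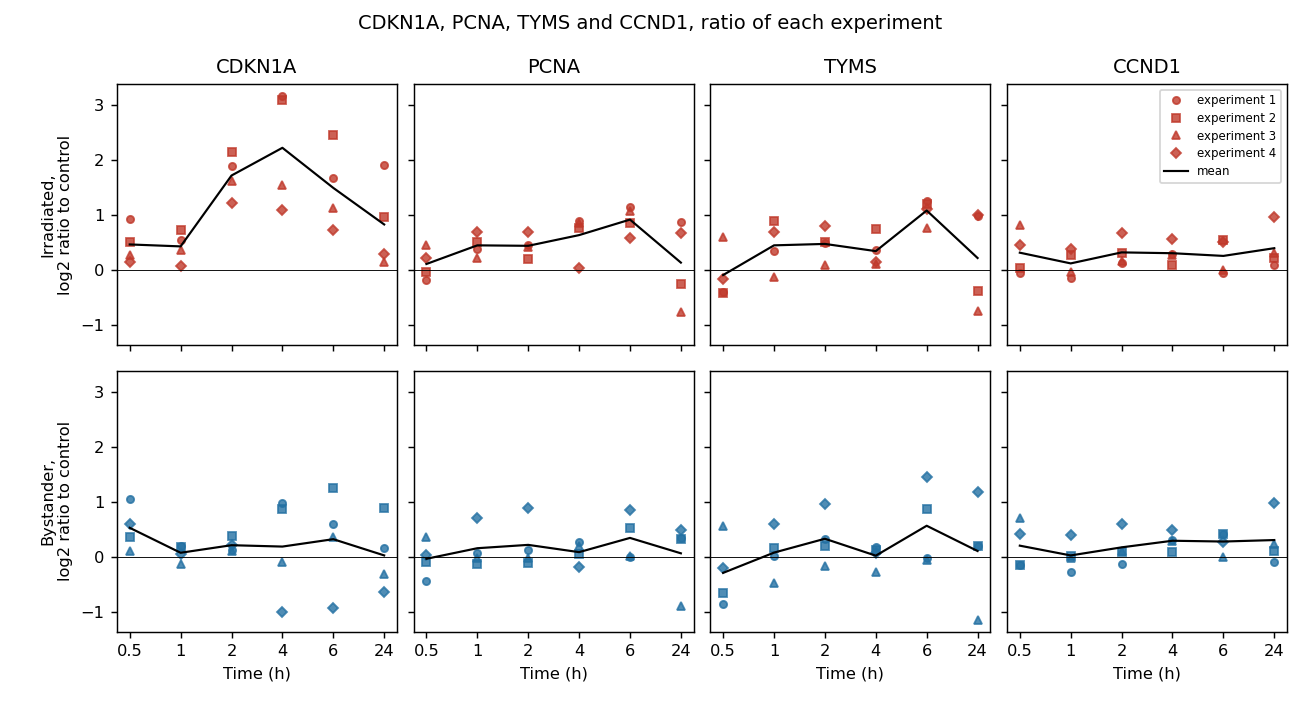
Log2 ratios to control (vertical axis) of CDKN1A, PCNA, TYMS and CCND1 against time in hours (horizontal axis, equally spaced), with 1 symbol per experiment and a line for the mean of 4, irradiated cells above and bystander cells below. CDKN1A reaches a mean of 2.22 at 4 hours in irradiated cells, and PCNA and TYMS have their highest means, 0.91 and 1.08, at 6 hours.

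Other genes of the pathway were also higher at 2 hours in irradiated cells, where 5.78% of all probes passed and 3.1% passed as higher. Of the partners in origin licensing and the helicase 7 of 17 tested were higher and 0 lower, with a median of 0.43, led by CDC45 (0.99), a helicase cofactor, TIPIN (0.80), WDHD1 (0.70) and ORC6 (0.68). Of the fork and lagging strand genes 4 of 18 were higher, with a median of 0.32, and these were LIG1 (DNA ligase, 0.55), RNASEH2A (0.55), POLD1 (0.44) and RPA3 (0.32). In nucleotide supply 1 of 10 was higher, DUT (0.36). Of the other G1/S regulators 5 of 22 were higher and 0 lower, with CDKN1A (1.72), the repressor E2F7 (1.34), MYBL2 (0.76), a transcription factor of proliferating cells, and the ligase subunit FBXW7 (0.61) the largest ratios. The list of G2/M and mitosis had 16 of 30 higher and 0 lower, with a median of 0.41, led by CENPE (0.83), CDK1 (0.73), HMMR (0.70) and MAD2L1 (0.65). The mitotic and the replication genes were not compared by a test. Without the replicate block, where 0.00793% of all probes passed, 0 genes of the 5 lists passed. Without experiment 1 or 2, or with slide as a fixed block, CDKN1A was the 1 gene of the 5 lists that passed. Over all probes 0.111%, 0.0991% and 0.123% passed in these fits. Without experiment 3, where 0.242% of all probes passed, CDKN1A was joined by 1 mitotic gene. Without experiment 4, where 19.5% of all probes passed, the counts were 9 licensing, 9 fork, 20 mitotic and 9 regulator genes (8 of these higher).

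At 6 hours in irradiated cells, where 10.5% of all probes passed and 4.89% as higher, 3 of 17 licensing partners were higher (CDC45 at 1.15, WDHD1 at 0.80 and DBF4 at 0.61), 1 of 18 fork genes (LIG1, 1.09), 3 of 22 regulators (E2F7 at 1.74, CDKN1A at 1.49 and FBXW7 at 0.81), and 3 of 30 mitotic genes, with 1 lower (CDC25B, -0.70). The share that passed was 5.56% of the fork genes and 13.3% of the mitotic genes, which is below and near that of all probes. In nucleotide supply RRM2B, the p53-induced small subunit of ribonucleotide reductase, was higher (1.04) and TK2 lower (-0.53). Without experiment 1, 2 or 4, where 3.11%, 5.02% and 0.824% of all probes passed, no licensing gene and no gene of nucleotide supply passed at 6 hours. The mitotic genes that passed were 0 without experiment 1 or 4. Without experiment 2 they were 2, both lower, where 2.88% of all probes passed as lower. Without experiment 3 they were 15, all higher, where 7.38% of all probes passed and 3.91% as higher. Without the replicate block, where 0.19% of all probes passed, 0 genes of the 5 lists passed at 6 hours. In bystander cells 0 genes of the licensing, fork, nucleotide and regulator lists passed at 2 and 6 hours, and 3 of 30 mitotic genes were higher at 2 hours (HMMR at 0.76, CENPF at 0.74 and UBE2C at 0.58), where 0.218% of all probes passed and 0.194% as higher. Without experiment 1, 2 or 3, without the replicate block or scaling, or with slide as a fixed block 0 of these mitotic genes passed. Over all probes 0% to 0.0713% passed in these fits. Without experiment 4, 18 mitotic genes passed, where 12.3% of all probes passed.

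The fibroblast markers were measured on the same arrays. At 2 hours in irradiated cells 8 of 10 had a ratio below 0, with a median of -0.20, and without experiment 4 this was 4 of 10 and 0.11. PDGFRB was lower (-0.61, adjusted p = 0.098, and -0.38 without experiment 4) and FAP higher (0.43, adjusted p = 0.049), and neither passed without experiment 1, 2 or 3, without the replicate block or with slide as a fixed block. At 6 hours 9 of 10 were below 0, and 9 of 10 also without experiment 4, where the median moved from -0.32 to -0.14. PDGFRB (-0.94, adjusted p = 0.033) and FAP (0.81, adjusted p = 0.020) passed at this time, and neither passed without experiment 4. PDGFRB was also lost without the filter on dim probes. FAP was also lost without the replicate block and without scaling, where its ratio was 0.45. In bystander cells 7 of 10 were below 0 at 2 hours and 9 of 10 at 6 hours, with medians of -0.24 and -0.47, and without experiment 4 this was 3 of 10 and 8 of 10, with medians of 0.07 and -0.27. Of the 10, 0 passed by limma, with 2 and 4 at an unadjusted p below 0.05. PDGFRB had -0.50 and -0.81, THY1 -0.24 and -0.61, and FAP 0.44 and 0.48, above 0 in 4 of 4 experiments at both times, with adjusted p of 0.13 and 0.24. Without experiment 4 the values at 2 hours were -0.28 for PDGFRB, 0.13 for THY1, which turned its direction, and 0.51 for FAP. At 0.5 hours THY1 was lower in irradiated and bystander cells (-1.07 and -1.10, adjusted p = 0.045 and 0.046), and PDGFRB in bystander cells (-0.75, adjusted p = 0.0998). None of these 3 passed without the arrays numbered 2 or 4, without the replicate block or without the filter on dim probes. Without the arrays numbered 3 THY1 did not pass in irradiated cells, and PDGFRB had -0.49 and did not pass. Both bystander calls were also lost without the arrays numbered 1 and with slide as a fixed block. Of the other lists, 2 epithelial, 2 endothelial and 3 leukocyte genes could be tested, and none passed at either time. At an unadjusted p below 0.05 were KRT19 (0.52) and CD3E (0.38) at 2 hours and KRT19 (0.95) and SFTPC (-0.73) at 6 hours, all in irradiated cells. Without experiment 4 KRT19 and CD3E had 0.71 and 0.52 at 2 hours, and KRT19 and SFTPC 0.51 and -0.47 at 6 hours. Their part in the result was not tested, and in bulk RNA a change in the share of cycling cells and a change of RNA per cell cannot be told apart.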

How the data were processed

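Per the file headers and the methods of the study, the authors scanned 1-colour Agilent whole human genome arrays and extracted them with Feature Extraction 9.1.3.1 (protocol GE1, v1_91). The deposited intensity of a spot is background-subtracted and detrended within the array, and nothing was normalized between arrays. The authors also deposited a table of log2 values. It equals the log2 of these intensities (tolerance 1e-05) for 66 of 72 arrays, with column medians of 8.15 to 9.65, and the other 6 arrays, numbers 3 and 4 at 0.5 hours, hold the values of the other number. It served as an alternative.

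Control spots and non-uniform spots were left out, intensities were divided by the 75th percentile of the array, a floor of 0.005 was set, and log2 was taken. Replicate spots were combined by their mean. A probe was kept if at most 10% of its spots on the 72 arrays were flagged as dim (less than 2.6 SD above background) or uneven, and 25236 of 41000 were kept. Of the 45 probes of the 35 genes 43 remained. The brightest remaining probe by mean level stood for a gene. For all 45 probes the accession on the array was found under the same symbol in the RefSeq table (GRCh38.p14), and promoter windows came from the same release.

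At each time limma 3.58.1 (R 4.3.3) was fitted to 12 arrays with treatment and experiment, with empirical Bayes moderation and an intensity trend, and 6 residual degrees of freedom. P-values were adjusted by Benjamini-Hochberg over all probes, and the threshold was 0.10. The change from 4 to 24 hours was a contrast of ratios over both times. The replicate number was the block because the methods state that the samples of an experiment came from 1 pool of cells. Arrays of the same number deviated together with r above 0.1 in 12 of 12 pairs at 0.5, 1, 2 and 24 hours, 11 of 12 at 4 hours and 10 of 12 at 6 hours. The fit was tested on simulated data. Where an experiment is left out, the fit uses the remaining 9 arrays. Time points lay on different slides, 3 per time.

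The members and lists were chosen with earlier results of these data known. Genes are named by rule, which takes the called members of each comparison, their partners in a complex, up to 4 called genes of each other list, CCND1, and the levels of the 5 called members with the largest ratios at 2 hours; the levels of TYMS, PCNA and CDKN1A, the second probes, the genes outside the threshold and the 4 promoters were chosen after their values were seen. Alternatives were no scaling, quantile normalization, no block, no filter, normexp with an offset of 50, the authors' table, slide as a random block, 1 fit over 72 arrays, no trend, any probe of a gene and leaving out each experiment. Slide as a fixed block and values within slides were chosen after seeing the data.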

Additional observations from a re-analysis of the deposited data

Results flagged for a closer look

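An array far from the other 3 of its group was looked for in 42 groups, and 8 were flagged, where chance flags about 1 in 20 independent groups. The 42 groups are not independent, since several genes were read on the same arrays. The 8 are therefore not a test against that rate. The measure is the gap to the nearest array over the range of the group. Experiment 3 was the low array in 7 of them. These were the median level of the genes in controls at 1 hour (0.925) and 4 hours (0.910) and in irradiated cells at 6 hours (0.874), the level of E2F2 at 2 hours in controls (0.877) and irradiated cells (0.974), and the level of UHRF1 at 2 hours in controls (0.933) and irradiated cells (0.904). The other was CCND1 in irradiated cells at 2 hours, where experiment 4 was the high array (0.909). No gene had all 4 irradiated ratios on one side of 0 and all 4 bystander ratios on the other among the 204 gene and time pairs looked at.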

How the results depend on the processing

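Counts of called genes changed with the settings, and so did some ratios, and the share of all probes that passed is given in brackets. At 2 hours in irradiated cells the count of 14 (5.78%) became 1 without scaling (UNG, lower, 27.4%), 5 without the filter (2.25%), 9 without the intensity trend (4.89%), and 0 without the replicate block (0.00793%), in 1 fit over 72 arrays (0.238%) and with slide as a fixed block (0.123%), and it ran from 0 to 25 over the experiments left out. At 6 hours the 5 (10.5%) became 2 without scaling (TYMS, 1 of the 5, and UNG, lower, 17.6%), 0 without the replicate block (0.19%) or the filter (1.39%), and 7 in 1 fit over 72 arrays (with TK1 and UNG, 26.0%), and ran from 0 to 9. With any probe of a gene the counts were 17 at 2 hours (with FEN1, MCM10 and RRM2) and 6 at 6 hours (with CCND1). For counts by any probe no share over all genes was computed. A gene with several probes has more chances to pass, so these counts have no background to be set against. In bystander cells the 1 at 2 hours (0.218%) became 0 without scaling, with quantile normalization, without the block, in the authors' table, without the trend, in 1 fit over 72 arrays and with slide as a fixed block (0% to 0.254%), and ran from 0 to 5. The 1 at 6 hours (0.289%) became 0 without scaling, with quantile normalization, without the block or the filter, with normexp, without the trend and with slide as a fixed block (0% to 0.242%), and ran from 0 to 3. Counts of 0 in irradiated cells became 1 at 0.5 hours with any probe of a gene (CCND1, and 0 to 6 over the experiments left out, the 6 all lower) and 1 at 4 hours with quantile normalization (1.11%) and in 1 fit over 72 arrays (4.11%), and ran from 0 to 1 there. In bystander cells they became 1 at 0.5 hours with normexp (7.79%), running from 0 to 19 over the experiments left out, the 19 all lower, and 1 at 4 hours without scaling (14.8%).

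Without scaling the median of all probes was -0.38 at 2 hours in irradiated cells, the median of the genes 0.14, and the ratio of MCM3 -0.026. For irradiated against bystander cells the median of the genes was -0.43 at 4 hours and -0.44 at 24 hours without scaling, where the median of all probes was -0.48 and -0.22, -0.090 at 24 hours with normexp, and from -0.28 to -0.20 at 24 hours over the experiments left out. Slide as a random block changed no call of the set apart from PRIM1 at 2 hours. The fitted correlation of arrays on a slide was -0.25 at 2 hours and -0.20 at 6 hours. With a correlation below 0 this setting cannot show whether slides had a part in the calls. Outside the set the random block ended the call of PDGFRB at 2 hours in irradiated cells (-0.56, adjusted p = 0.12). The cause of these changes was not tested. With 4 experiments and wide spread, a gene that did not pass is not shown to be unchanged.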
